A study of Mus musculus with 40 samples.

Results

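The comparison described here set the mRNA held by ribosomes of layer 5 pyramidal neurons against that of GABAergic neurons in the mouse forebrain. Its members were all 5 RBP4-TRAP and all 5 VGAT-TRAP libraries, 10 of the 40 libraries in the series, chosen by line and fraction alone and read over every gene off the mitochondrial chromosome. In translating ribosome affinity purification (TRAP), a green fluorescent protein fused to the ribosomal protein Rpl10a is made only in cells with Cre recombinase, and ribosomes are then captured through that tag together with the mRNA on them. From each pool the study also sequenced the whole-cell homogenate (WCH) that TRAP started from, a synaptoneurosome fraction and TRAP on that fraction, so that 4 fractions were taken in each of 2 lines.

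All mice of both lines carried the Cre-dependent reporter allele B6.129S4-Gt(ROSA)26Sor tm1(CAG-EGFP/Rpl10a,-birA)Wtp/J, were 21 days old and had no treatment named in the labels. In the RBP4 line the Cre came from the BAC transgene Tg(RBP4-cre)KL100Gsat/Mmcd, a random insertion used to reach layer 5 pyramidal cells, and in the VGAT line it was knocked in at Slc32a1, the vesicular GABA transporter gene (Slc32a1 tm2(cre)Lowl/J). Each replicate was its own pool of several forebrains from mice of both sexes where available, so a library is an average over animals. The labels call the tissue cortex, while the protocol describes dissection of the forebrain, and the VGAT line marks any GABAergic neuron in the dissected piece, striatal cells included. A gene lower in such a library may be made by fewer of the captured cells or be less abundant in each of them. Part of a low level may also be RNA carried over from cells that were not captured. These readings cannot be told apart.

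Layer 5 pyramidal cells are the large glutamatergic output neurons of the neocortex and send axons to the striatum, brainstem and spinal cord. GABAergic neurons are inhibitory. In the cortex they are local interneurons, commonly divided by whether they make parvalbumin, somatostatin or the serotonin receptor Htr3a, and in the striatum most of them are the spiny projection neurons that carry D1 or D2 dopamine receptors. The homeobox genes of the Dlx family act in the ventral forebrain where these GABAergic cells are born, whereas Fezf2 acts in the dorsal lineage that gives rise to the deep-layer projection neurons.

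The RBP4-TRAP libraries held 16817037 to 22037703 counts and the VGAT-TRAP libraries 15707596 to 20629343, so that 1 count was worth 0.0455 to 0.0638 CPM (counts per 1000000 counts of the library off the mitochondrial chromosome). TRAP libraries were compared by Spearman correlation over genes at 0.5 CPM or more in at least 3 of these 10 libraries. Each TRAP library lay nearest to another of its own line. RBP4-TRAP replicate 5 stood apart, with a highest correlation of 0.965 to any other TRAP library against 0.985 to 0.986 for the remaining RBP4-TRAP libraries and 0.989 to 0.991 for VGAT-TRAP. Its summed level of 16 oligodendrocyte markers was 5725 CPM against 433 to 1009 CPM in the other RBP4-TRAP libraries. Its summed level of 14 astrocyte markers was 1953 CPM against 582 to 926 CPM. The VGAT-TRAP library with most glial RNA was replicate 3, at 2644 CPM for the oligodendrocyte and 1302 CPM for the astrocyte markers, where the other VGAT-TRAP libraries held 488 to 1912 CPM and 213 to 688 CPM. The part of this RNA in the differences below was not tested.

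**Figure D1:**
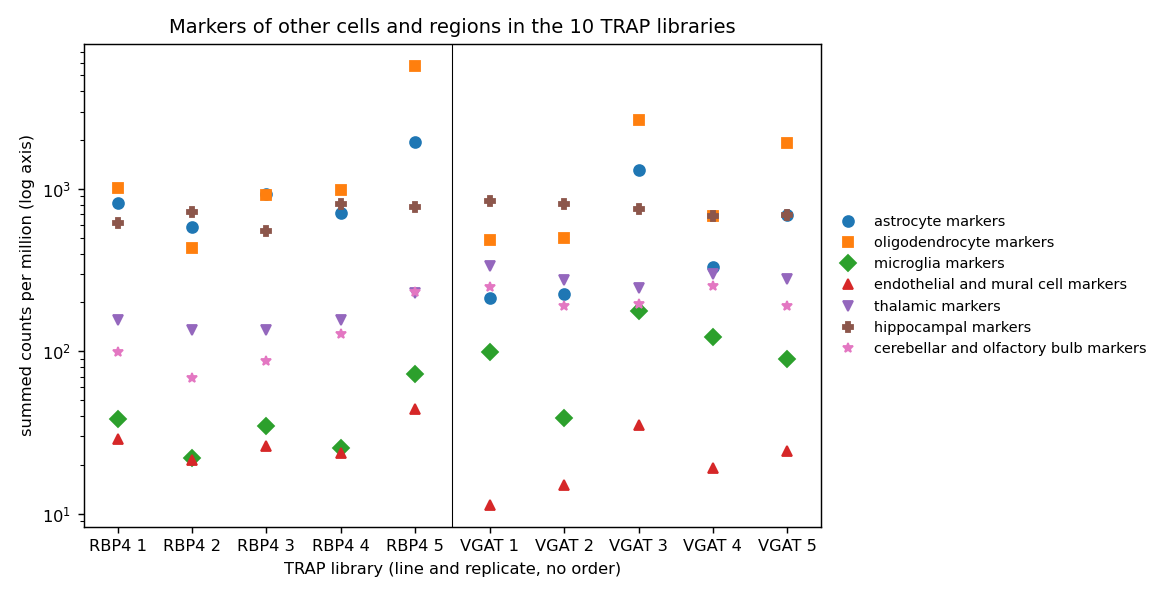
Summed CPM (vertical axis, log scale) of marker lists of other cell types and regions in each of the 10 TRAP libraries, libraries along the horizontal axis and 1 colour and symbol per list. RBP4-TRAP replicate 5 sits highest of all for oligodendrocyte markers, at 5725 CPM, while the 5 RBP4-TRAP values for microglia run from 21.98 to 72.8 CPM and those of VGAT-TRAP from 38.9 to 177 CPM.

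Of 16900 genes tested, 4731 (28.0%) differed between the lines in TRAP at an adjusted p of at most 0.05, which is what "called" means throughout (edgeR's quasi-likelihood test, Benjamini-Hochberg adjustment over all genes tested). Higher levels in RBP4-TRAP were called for 2183 genes (12.9%) and higher levels in VGAT-TRAP for 2548 (15.1%). These shares are the background for the counts of called genes in each list below. Which line had more called genes depended on scaling, since TMM factors gave 2518 for RBP4-TRAP against 2209 for VGAT-TRAP. Over all tested genes the log2 fold change of RBP4-TRAP over VGAT-TRAP had a median of -0.01. The called differences had a median size of 1.15 on the log2 scale in genes higher in RBP4-TRAP and 1.10 in genes higher in VGAT-TRAP, and 48 of the former and 114 of the latter were at least 16-fold. For 3852 genes (22.8%) the 5 libraries of a line all lay above the 5 of the other, with RBP4-TRAP above in 1620 (9.59%) and VGAT-TRAP above in 2232 (13.2%). Without RBP4-TRAP replicate 5 the counts were 1878 and 2674, and 1797 and 2243 genes were called the same way in both fits, which is 82.3% and 88.0% of the genes called with all libraries. Protein-coding genes gave 1966 of the genes higher in RBP4-TRAP and 2305 of those higher in VGAT-TRAP, and long intergenic noncoding RNAs gave 78 and 72.

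**Figure D2:**
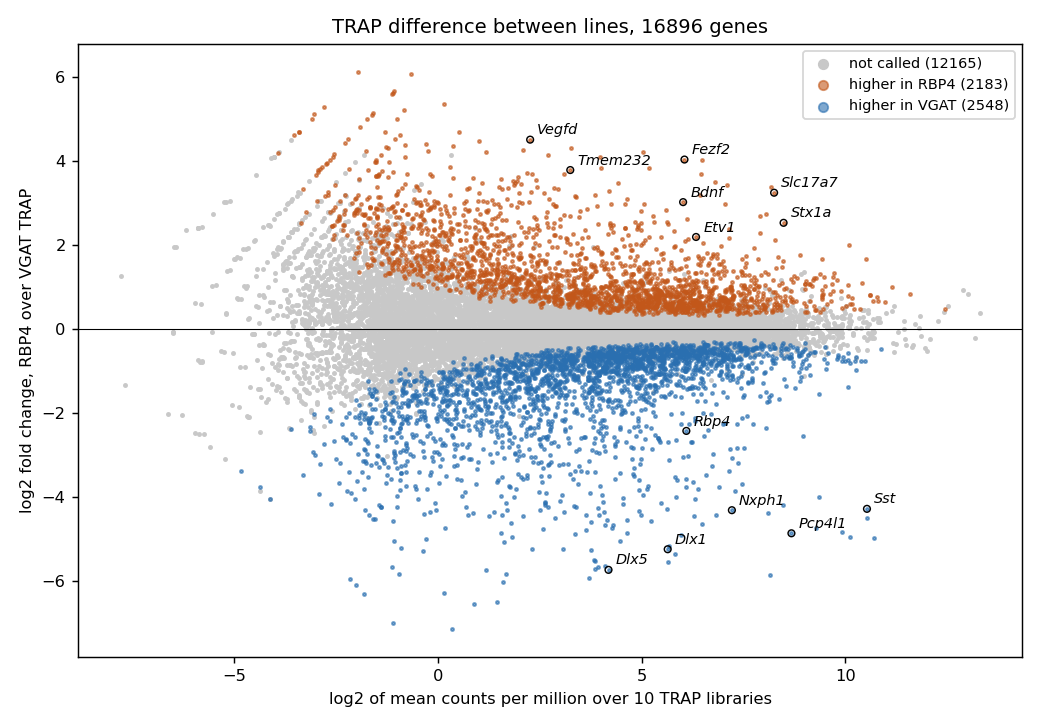
Log2 fold change of RBP4-TRAP over VGAT-TRAP (vertical axis) against the log2 of the mean CPM over the 10 TRAP libraries (horizontal axis) for 16896 tested genes, coloured by call, with 4 tested genes that had no TRAP count not drawn. The VGAT-TRAP side holds more genes far from 0, with 114 called genes at a 16-fold difference or more against 48 on the RBP4-TRAP side.

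The genes that define the targeted cells separated the lines. Fezf2 (ENSMUSG00000021743, chr14:12341892-12345865, - strand, GRCm38), the transcription factor that specifies subcortically projecting neurons, read 120.0, 142, 117, 168 and 79.5 CPM in RBP4-TRAP replicates 1 to 5 and 4.27, 4.10, 18.6, 5.76 and 5.68 CPM in VGAT-TRAP replicates 1 to 5. Slc17a7 (ENSMUSG00000070570, chr7:45163921-45176138, + strand), the vesicular glutamate transporter of cortical excitatory neurons, read 590.4, 489, 611, 639 and 433 CPM against 24.6, 24.7, 155, 39.1 and 48.8 CPM. No library of a line overlapped the other line for either gene, the highest VGAT-TRAP value was that of replicate 3 for both, and the log2 fold changes were 4.03 ± 0.38 (SE, adjusted p = 9.85e-10) and 3.24 ± 0.35 (adjusted p = 1.54e-08). In WCH, where all cells contribute, Fezf2 stood at 29.5 to 63.4 CPM in the RBP4 line and 33.8 to 57.4 CPM in the VGAT line.

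Dlx1 (ENSMUSG00000041911, chr2:71528113-71533981, + strand), a homeobox factor of GABAergic neurons, read 2.68, 2.72, 3.11, 1.73 and 2.52 CPM in RBP4-TRAP and 111, 97.4, 81.9, 115 and 81.05 CPM in the VGAT line, replicates in order. The values of Sst (ENSMUSG00000004366, chr16:23889581-23890844, - strand), the precursor of somatostatin, were 118, 148, 183, 127 and 147 CPM and 2684, 2400.1, 2739, 3648 and 2650.2 CPM. Both were far lower in every RBP4-TRAP library than in any VGAT-TRAP library, with log2 fold changes of -5.25 ± 0.22 (adjusted p = 2.75e-17) and -4.29 ± 0.37 (adjusted p = 2.21e-10). Sst remained well above the counting limit in RBP4-TRAP, where its level per kilobase was 241 RPKM (CPM divided by the gene's exonic length in kilobases) against 4715 RPKM in VGAT-TRAP. In WCH of the RBP4 line Sst stood at 151 to 210 CPM, which overlapped RBP4-TRAP. Whether this RNA came from layer 5 cells was not tested.

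The enzymes and transporters of GABA followed. Gad1, a glutamate decarboxylase that makes GABA, was present at 77, 58.3, 61.8, 95 and 332 CPM in RBP4-TRAP and at 3054, 3469, 2016, 2922 and 2645 CPM in the VGAT line. Gad2, the second decarboxylase, read 30.6, 29.6, 28.6, 39.9 and 97.03 CPM and 1454, 1575, 861, 1109 and 1039 CPM. For both genes RBP4-TRAP replicate 5 was well above the other RBP4-TRAP libraries and still under every VGAT-TRAP library. Slc32a1, which loads GABA into vesicles and whose locus carries the Cre of the VGAT line, read 2.03, 1.49, 3.53, 2.37 and 4.99 CPM and 48.4, 49.7, 56.8, 77.2 and 59.8 CPM. Of 10 tested genes of GABA synthesis and transport, 0 were called higher in RBP4-TRAP and 6 on the VGAT-TRAP side, with a median log2 fold change of -1.43. Beside the decarboxylases and Slc32a1 these included Abat and Aldh5a1, enzymes of the pathway that breaks GABA down (-1.61 ± 0.35 and -1.25 ± 0.27). For Abat, RBP4-TRAP replicate 5 at 269.9 CPM overlapped the VGAT-TRAP libraries, whose lowest value was 266.2 CPM.

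Genes for vesicular glutamate transport and glutaminase, 7 tested, split with 3 called higher in RBP4-TRAP and 3 on the VGAT-TRAP side. Slc17a6, the transporter typical of subcortical glutamatergic cells, was higher in RBP4-TRAP (2.96 ± 0.33). On the other side lay Slc17a8, the third vesicular transporter, which some interneurons and cholinergic cells make (-2.32 ± 0.30), Slc38a1, a glutamine carrier (-1.41 ± 0.17), and Gls2 (-0.47 ± 0.15). Slc17a8 was low throughout, at 0.972 ± 0.414 CPM in RBP4-TRAP and 4.88 ± 1.85 CPM in the VGAT line (mean ± SD, n = 5).

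**Figure D3:**
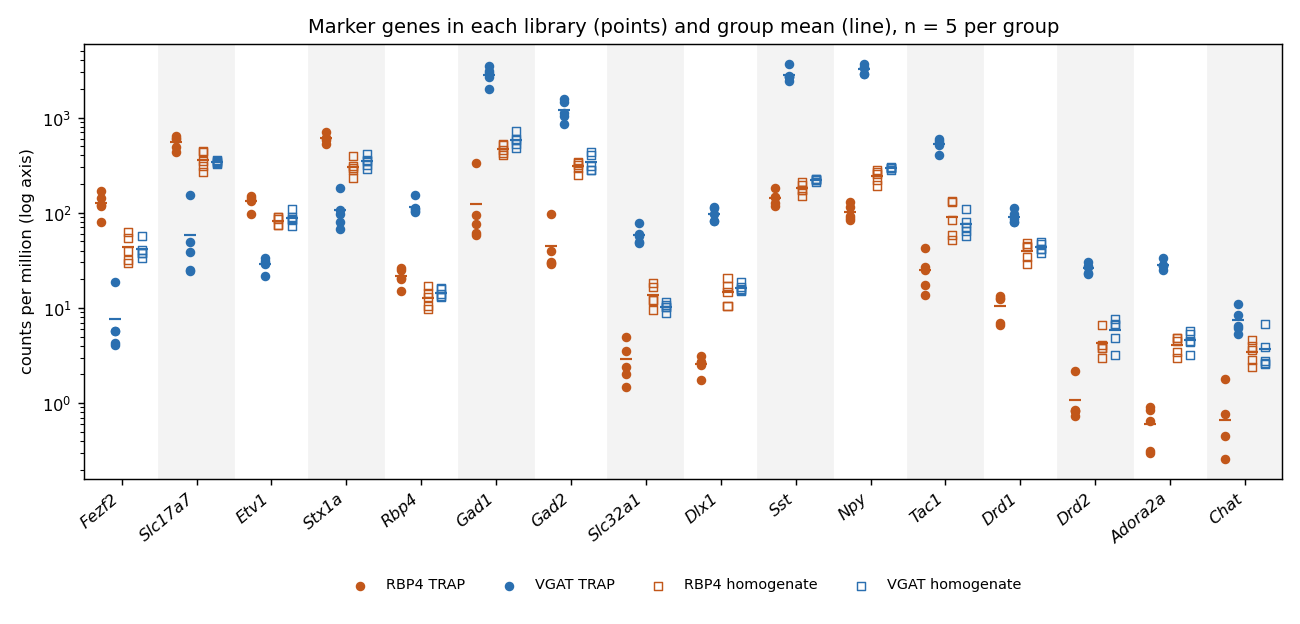
CPM (vertical axis, log scale) of 16 marker genes in each TRAP and WCH library of both lines, 1 point per library and a line at each group's mean, with the value of 0 for Chat in RBP4-TRAP replicate 2 not drawn. Fezf2 and Slc17a7 lie higher in all RBP4-TRAP libraries, Dlx1, Sst, Gad1 and Gad2 higher in all VGAT-TRAP libraries, and Gad1 in RBP4-TRAP replicate 5, at 332 CPM, stands above its group.

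Neuropeptide precursors, the proteins cut to give peptide transmitters, held the largest summed level of the signalling genes in VGAT-TRAP. Their summed level was 1647 to 2154 CPM in RBP4-TRAP and 10043 to 12272 CPM in the VGAT line, with no overlap. Of 23 tested precursors 3 were called higher in RBP4-TRAP and 14 on the VGAT-TRAP side, with a median log2 fold change of -2.40. The share higher in RBP4-TRAP, 13.04%, was near the 12.9% of all tested genes. Npy, neuropeptide Y, read 84.3, 88.96, 114, 91.7 and 130.5 CPM in RBP4-TRAP and 2854, 2884, 3346, 3678 and 3390.4 CPM in the VGAT line. Penk, the enkephalin precursor of D2 striatal neurons, read 71.7, 39.7, 51.4, 70.9 and 116 CPM and 2349, 1991, 1819.7, 1733 and 2924 CPM. Vip, vasoactive intestinal peptide of an interneuron class, had the widest gap of the precursors, with 11.6, 4.26, 9.19, 6.28 and 16.9 CPM against 474, 496, 613, 629 and 601 CPM and a log2 fold change of -5.87 ± 0.38 (adjusted p = 3.41e-13).

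Tac1, the substance P precursor of D1 striatal neurons, was -4.38 ± 0.38 on the log2 scale, Tac2, which encodes neurokinin B, was -5.35 ± 0.39, Pnoc, the nociceptin precursor, was -5.17 ± 0.32, and Cort, which encodes cortistatin, was -3.74 ± 0.30. Per kilobase, the highest mean levels among these in VGAT-TRAP were those of Npy at 5708 RPKM and Sst at 4715 RPKM, with Penk at 1324 RPKM and Vip at 368 RPKM. The paper reports a strong bias of reads to the 3′ end, so levels per kilobase of genes of unequal length may not be comparable. In CPM, the VGAT-TRAP medians were 3346.5 for Npy, 2684.1 for Sst, 1991.4 for Penk and 600.9 for Vip. The precursors higher in RBP4-TRAP were Adcyap1, which encodes the peptide PACAP, Grp, gastrin-releasing peptide, and Cck, cholecystokinin. Adcyap1 read 75.3, 62.2, 64.3, 74.8 and 31.6 CPM in RBP4-TRAP and 1.72, 2.44, 7.01, 2.33 and 3.26 CPM in the VGAT line, a log2 fold change of 4.21 ± 0.39 (adjusted p = 8.56e-10). Grp stood at 11.9 to 25.8 CPM against 1.72 to 5.67 CPM, and Cck at 284 to 678 CPM against 132 to 267 CPM, so that neither overlapped.

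Sst carries in its promoter a textbook control element, the cAMP response element, the palindrome TGACGTCA bound by CREB, and it is printed here because Sst is among the most separated genes of the comparison. It was looked for on both strands in RefSeq promoters of GRCm38.p6, from 250 bases before to 50 bases after each start, which covered 12280 of the tested genes. Of 18 peptide precursors matched there 4 held it, and among all tested genes with a promoter the share was 3.34%. The 4 windows, with the element in capitals and read 5′ to 3′ on the strand of the gene, were as follows, and Cartpt, Scg2 and Chgb were named for holding the element, after their values were seen.
Sst (chr16:23890876-23890901, - strand): ctccttggcTGACGTCAgagagagag
Cartpt (chr13:99900779-99900804, - strand): ggcgggcatTGACGTCAaacggcagc
Scg2 (chr1:79440078-79440103, - strand): ctgagccggTGACGTCAgcgtggaat
Chgb (chr2:132781561-132781586, + strand): gctgctccgTGACGTCAgggctgagc

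Behind those 4 windows the TRAP values differed. Sst (-4.29), Cartpt, the precursor of CART peptides (-2.70), and Scg2, a granin of dense-core vesicles (-1.03), were called higher in VGAT-TRAP, while Chgb, another granin, was not called (0.27, adjusted p = 0.392). The receptor gene Sstr2, through which somatostatin acts, held the element as well and was called higher in RBP4-TRAP (1.81 ± 0.32):
Sstr2 (chr11:113619260-113619285, + strand): aagctgccgTGACGTCAcgggcgggg
Th, tyrosine hydroxylase, which marks a set of interneurons and was higher in VGAT-TRAP (-4.68 ± 0.42), held it at a similar distance from its start:
Th (chr7:142900024-142900049, - strand): gaggggcttTGACGTCAgcctggcct
In Sst the element lay 48 bases before the start and in Th 45 bases before it. The share of promoters with the element was 2.77% among genes higher in RBP4-TRAP, 3.35% among genes higher in VGAT-TRAP and 3.44% among genes not called. The letters alone do not show that a factor binds there.

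Receptors for peptides were divided between the lines, with 12 of 33 tested called higher in RBP4-TRAP and 9 on the VGAT-TRAP side and a median log2 fold change of -0.04 (-0.23 to 0.04 with 1 TRAP library left out). Sstr2 read 70.4, 95.9, 73.8, 83.8 and 36.5 CPM in RBP4-TRAP and 19.5, 18.6, 27.3, 20.8 and 16.7 CPM in the VGAT line, opposite in direction to its ligand gene Sst. For Cck, ligand and receptor were both higher in RBP4-TRAP, since Cckbr, the cortical cholecystokinin receptor, was called higher there (1.59 ± 0.25). Ntsr1, the neurotensin receptor, and Npr3, a natriuretic peptide receptor, were higher in RBP4-TRAP as well (1.75 ± 0.37 and 2.44 ± 0.29). On the VGAT-TRAP side lay Rxfp3, the relaxin-3 receptor (-5.26 ± 0.55), Grpr, the receptor of gastrin-releasing peptide (-4.63 ± 0.58), and Tacr1, the substance P receptor (-3.17 ± 0.32). Grp and Grpr were thus called in opposite directions, with Grpr at 0.104 to 0.773 CPM in RBP4-TRAP and 4.78 to 8.26 CPM in the VGAT line. Crhr1 (1.58) and Vipr1 (1.51), receptors for corticotropin-releasing hormone and for VIP, were also higher in RBP4-TRAP, opposite to Crh (-4.74) and Vip (-5.87), and of these Crhr1, Vipr1 and Crh were named after their values were seen.

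Transcription factors of the cell lineages were read next. Among 18 tested interneuron factors, 16 were called higher in VGAT-TRAP and 0 higher in RBP4-TRAP, with a median log2 fold change of -4.19. For 15 of them every VGAT-TRAP library lay above every RBP4-TRAP library. Lhx6, a LIM homeobox factor of parvalbumin and somatostatin interneurons, read 3.28, 3.76, 5.86, 2.09 and 5.10 CPM in RBP4-TRAP and 150.0, 138, 88.2, 127 and 103 CPM in the VGAT line. Dlx5 and Dlx6, neighbours in the genome, were -5.74 ± 0.33 and -5.52 ± 0.31 on the log2 scale. Sp8, a zinc finger factor, was -4.55 ± 0.47. Prox1, Nr2f2 and Npas3 had smaller differences of -0.57 ± 0.16, -1.25 ± 0.31 and -2.43 ± 0.33.

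The 12 tested striatal factors gave 11 calls higher in VGAT-TRAP and 0 higher in RBP4-TRAP, with a median of -3.22. Six3, a homeobox factor of D2 striatal neurons, was -5.67 ± 0.37, Sp9 was -5.05 ± 0.27, Isl1, a LIM homeobox factor of D1 and cholinergic cells, was -4.89 ± 0.55, and Rarb, a retinoic acid receptor, was -3.58 ± 0.28. Isl1 stood at 0 to 1.79 CPM in RBP4-TRAP and 13.4 to 34.7 CPM in the VGAT line. Meis2 and Ebf1 had smaller differences, at -1.62 ± 0.20 and -1.87 ± 0.60, and Foxp1 was the member not called (-0.31). Ebf1 read 1.19, 0.743, 0.415, 1.55 and 9.19 CPM in RBP4-TRAP and 7.40 to 12.5 CPM in the VGAT line, so that replicate 5 alone overlapped. The homeodomain core TAATTA, looked for on both strands in the same RefSeq promoters because the Dlx, Lhx6, Six3 and Isl1 proteins are homeodomain factors, was present in 3.81% of promoters of genes higher in VGAT-TRAP, 3.97% of those higher in RBP4-TRAP and 3.61% of all. Among listed genes it was found on both sides, and 3 windows are printed as examples with the core in capitals, 85 bases before the start of Cort and 100 bases before that of Tac1, both higher in VGAT-TRAP, and 81 bases before that of Slc17a6, higher in RBP4-TRAP.
Cort (chr4:149126834-149126857, - strand): ccgagtcttTAATTAaggggctaa
Tac1 (chr6:7554952-7554975, + strand): gggggcggcTAATTAaatattgag
Slc17a6 (chr7:51624547-51624570, + strand): gtgaatgatTAATTAttcatgttg

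Factors of cortical projection neurons ran the other way, with 18 of 25 tested called higher in RBP4-TRAP and 4 on the VGAT-TRAP side and a median of 1.37. Those 4, a share of 16%, lay near the 15.1% of all tested genes. Neurod6, a basic helix-loop-helix factor of excitatory cortical cells, read 254, 350.5, 196, 283 and 163 CPM in RBP4-TRAP and 9.75, 9.74, 59.8, 15.1 and 21.3 CPM in the VGAT line. Etv1, an ETS factor of layer 5, had the smallest p of all genes higher in RBP4-TRAP (adjusted p = 7.49e-12), with 134, 150.4, 137, 144 and 97.2 CPM against 31.3, 29.2, 33.7, 21.7 and 29.7 CPM. Rorb, a nuclear receptor of layer 4, was higher in RBP4-TRAP (2.34 ± 0.38), and so was Mef2c (1.09 ± 0.16). The 4 factors in the opposite direction were Bcl11b, also called Ctip2 and made by subcerebral projection neurons and by striatal neurons (-1.08 ± 0.16), Tle4 (-1.04 ± 0.15), Cux1 (-1.08 ± 0.19) and Pou3f3, named after its value was seen (-0.65 ± 0.21). Bcl11b stood at 65.97, 54.9, 56.2, 83.3 and 55.5 CPM in RBP4-TRAP and 146, 149, 129.8, 117 and 126 CPM in the VGAT line.

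Markers of cortical layer 5, 23 tested, gave 16 calls higher in RBP4-TRAP and 3 on the VGAT-TRAP side, with a median of 1.24. Those 3, a share of 13.04%, lay near the 15.1% of all tested genes. Ldb2, a LIM domain binding protein of deep-layer output neurons, read 160.3, 155, 131, 170.2 and 119.6 CPM in RBP4-TRAP and 32.1, 32.7, 47.6, 28.9 and 36.7 CPM in the VGAT line. Rbp4 itself, Bcl11b and Pcp4, a calmodulin-binding protein, were the 3 members called higher in VGAT-TRAP. Pcp4 was -0.82 ± 0.31 on the log2 scale at 528 to 1028 CPM against 1121 to 1707 CPM. The call for Pcp4 was lost under 10 of the 21 alternative settings, its direction under none.

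Of 12 tested upper layer markers 4 were called higher in RBP4-TRAP and 3 on the VGAT-TRAP side (median 0.10, and -0.05 to 0.21 with 1 TRAP library left out), the latter becoming 5 without RBP4-TRAP replicate 5. Rorb, Scnn1a (1.76 ± 0.31), Kcnh5 (1.25 ± 0.24) and Lamp5 (0.79 ± 0.26) were the former, and Calb1 (-1.36 ± 0.31), Cux1 and Whrn (-0.69 ± 0.19) the latter. Of 12 tested layer 6 markers 2 were called higher in RBP4-TRAP and 5 on the VGAT-TRAP side (median -0.39). Ntsr1 and Rprm (1.22 ± 0.24) were higher in RBP4-TRAP, and Syt6, a synaptotagmin, Moxd1, a monooxygenase, and Foxp2, a forkhead factor that striatal neurons also make, were higher in VGAT-TRAP (-3.95 ± 0.26, -3.41 ± 0.35 and -2.44 ± 0.23). Syt6 read 5.18, 2.28, 3.11, 2.32 and 7.00 CPM in RBP4-TRAP and 67.3, 63.2, 55.4, 55.4 and 65.4 CPM in the VGAT line. Without VGAT-TRAP replicate 3 the layer 6 markers higher in RBP4-TRAP numbered 4 and the median was -0.24.

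Markers of the interneuron classes of the cortex were mostly higher in VGAT-TRAP. The VGAT line marks striatal cells too, and the region this RNA came from was not tested. Of 26 tested class markers 23 were called higher in VGAT-TRAP and 3 higher in RBP4-TRAP, with a median of -3.70. Those 3, a share of 11.5%, lay near the 12.9% of all tested genes. Pvalb, parvalbumin, the calcium buffer of fast-spiking cells, read 29.1, 56.5, 46.5, 29.2 and 168 CPM in RBP4-TRAP and 1882, 2339, 1517, 1741 and 1919 CPM in the VGAT line. Htr3a, the serotonin-gated channel of the third class, was -4.37 ± 0.38, with 0.546 to 4.03 CPM against 25.1 to 36.9 CPM. Reln, the matrix protein of neurogliaform cells, was -2.27 ± 0.25, Calb2, calretinin, was -2.12 ± 0.32, and Crhbp, which binds corticotropin-releasing hormone, was -4.43 ± 0.26. The 3 members higher in RBP4-TRAP were Cck, Lamp5 and Id2 (0.70 ± 0.21), none of which is limited to interneurons.

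Genes of striatal projection neurons, 26 tested, gave 24 calls higher in VGAT-TRAP, 0 higher in RBP4-TRAP and a median of -2.95. The dopamine receptor gene Drd1 read 12.6, 6.63, 6.90, 12.5 and 13.4 CPM in RBP4-TRAP and 86.6, 96.6, 80.03, 80 and 112 CPM in the VGAT line. Drd2 read 0.834, 0.842, 0.830, 0.728 and 2.19 CPM and 27.7, 26.9, 23.1, 22.7 and 30.5 CPM, and its highest RBP4-TRAP value was that of replicate 5. Adora2a, the adenosine receptor found together with Drd2, had a log2 fold change of -5.54 ± 0.44. Rgs9, a regulator of G protein signalling, and Pde10a, a phosphodiesterase, were -3.60 ± 0.40 and -3.08 ± 0.31. In WCH, Drd1 stood at 28.9 to 47.5 CPM in the RBP4 line and 37.95 to 48.7 CPM in the VGAT line, with overlap.

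All 9 tested cholinergic markers were called higher in VGAT-TRAP (median -4.16), although at low levels. Chat, choline acetyltransferase, read 0.775, 0, 0.260, 0.455 and 1.79 CPM in RBP4-TRAP and 11.1, 8.38, 5.36, 6.45 and 6.22 CPM in the VGAT line. Slc18a3, the vesicular acetylcholine transporter, read 0.358, 0.0990, 0.260, 0.0455 and 1.12 CPM and 12.1, 6.54, 4.72, 9.46 and 7.87 CPM. Slc5a7, the choline transporter, and Slc10a4, another vesicular carrier, were -3.53 ± 0.49 and -4.16 ± 0.54. The sum of counts behind Chat was 60 in RBP4-TRAP and 649 in VGAT-TRAP.

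**Figure D4:**
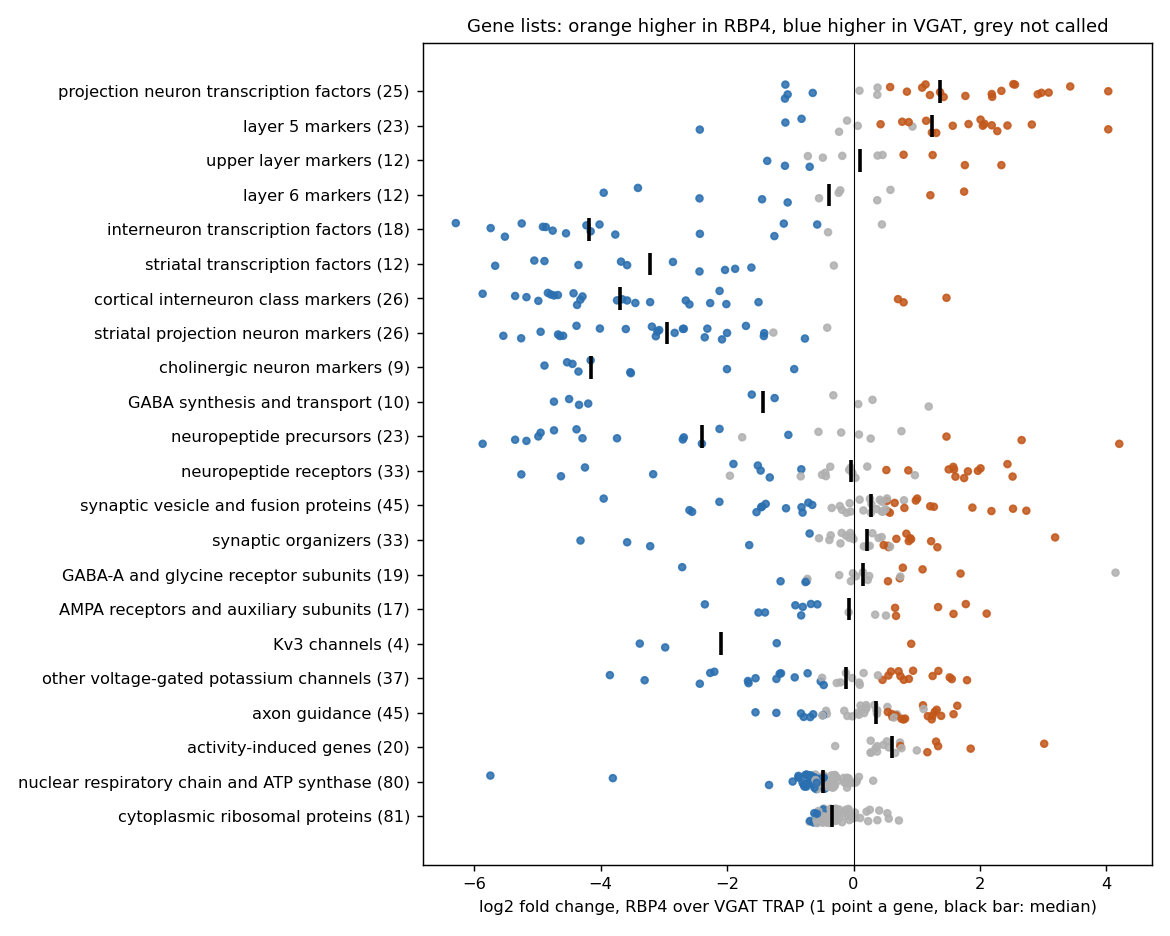
Log2 fold change of RBP4-TRAP over VGAT-TRAP (horizontal axis) for the tested members of 22 gene lists, 1 point per gene, coloured by call, with the list median as a bar. Interneuron class markers (median -3.70), cholinergic markers (-4.16) and striatal markers (-2.95) lie to the VGAT-TRAP side, layer 5 markers (1.24) and projection neuron factors (1.37) to the RBP4-TRAP side, and most synaptic lists lie around 0.

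Receptors for dopamine, serotonin, noradrenaline and histamine, which carry the signals of brainstem neurons, were called higher in RBP4-TRAP for 7 of 27 and higher in VGAT-TRAP for 9 (median 0.10, and -0.02 to 0.15 with 1 TRAP library left out). Without VGAT-TRAP replicate 2 the former numbered 4. Htr5b, a serotonin receptor, Adra1d, an adrenergic receptor, and Drd5, the second D1-like dopamine receptor, were higher in RBP4-TRAP (2.22 ± 0.42, 1.79 ± 0.31 and 1.29 ± 0.29). Drd5 thus differed in the direction opposite to Drd1. Htr1d was higher in VGAT-TRAP (-3.89 ± 0.39), at 0.297 to 1.59 CPM in RBP4-TRAP and 9.25 to 11.7 CPM in the VGAT line. Among 14 acetylcholine receptor genes, the muscarinic receptor Chrm1 was higher in RBP4-TRAP (0.88 ± 0.17), and Chrm2 (-1.47 ± 0.22) with the nicotinic subunits Chrna2, Chrna5 and Chrnb4 was higher in VGAT-TRAP (-2.31 ± 0.59, -2.44 ± 0.36 and -2.93 ± 0.79).

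The endocannabinoid genes held calls in both directions. Cnr1, the presynaptic cannabinoid receptor abundant in Cck interneurons, was higher in VGAT-TRAP (-1.50 ± 0.26), with 101 to 189 CPM in RBP4-TRAP and 290.2 to 495 CPM in the VGAT line. Faah, which degrades anandamide, Daglb, which makes 2-arachidonoylglycerol, and Cnrip1, a receptor-interacting protein, were higher in RBP4-TRAP (1.57 ± 0.19, 0.77 ± 0.17 and 0.87 ± 0.19). Of 10 tested genes these were the 3 higher in RBP4-TRAP, and Cnr1 with Mgll (-0.55 ± 0.20) the 2 higher in VGAT-TRAP. The call for Mgll was lost under 13 of the 21 alternative settings.

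Growth factors and their receptors, 32 tested, gave 7 calls higher in RBP4-TRAP and 13 on the VGAT-TRAP side (median -0.27). Bdnf, the brain-derived neurotrophic factor, which in the cortex is made by excitatory cells, read 125, 138, 111, 149 and 54.3 CPM in RBP4-TRAP and 7.27, 5.29, 33.9, 9.46 and 15.6 CPM in the VGAT line, without overlap (3.02 ± 0.41). Erbb4, the neuregulin receptor of interneurons, was higher in VGAT-TRAP (-3.60 ± 0.34). Met, the hepatocyte growth factor receptor, and Gfra2, a receptor of neurturin, were higher in RBP4-TRAP (1.96 ± 0.31 and 1.89 ± 0.27).

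Inside the cell, 8 of 25 tested genes of cyclic nucleotide signalling were called higher in VGAT-TRAP and 3 higher in RBP4-TRAP. The latter, a share of 12% near the 12.9% of all tested genes, became 6 with TMM factors. Adcy5, the striatal adenylyl cyclase, was -2.08 ± 0.19, and Gnal, the G protein that couples dopamine receptors to it, was -2.35 ± 0.17. Pde1a and Pde1b, phosphodiesterases activated by calmodulin, differed in opposite directions (1.66 ± 0.22 and -2.001 ± 0.22), with Pde1a at 324 to 389 CPM in RBP4-TRAP and 75.5 to 166 CPM in the VGAT line. Of 15 RGS genes, which speed the end of G protein signals, 3 were called higher in RBP4-TRAP and 7 on the VGAT-TRAP side. Rgs14 was higher in RBP4-TRAP (0.88 ± 0.19), while Rgs10 and Rgs12 were higher in VGAT-TRAP (-2.55 ± 0.22 and -2.32 ± 0.25). Among 18 genes of calmodulin kinases and calcineurin, Nrgn, neurogranin, was higher in RBP4-TRAP (1.02 ± 0.21) and Camk2n2, an inhibitor of CaM kinase II, was higher in VGAT-TRAP (-1.24 ± 0.28). The 5 of them higher in RBP4-TRAP became 3 without its replicate 5.

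At the synapse most lists held calls in both directions. GABA-A and glycine receptor subunits, 19 tested, gave 5 calls higher in RBP4-TRAP and 4 on the VGAT-TRAP side (median 0.15, and 0.000504 to 0.25 with 1 TRAP library left out). Gabra5, a subunit of extrasynaptic receptors on pyramidal cells, read 212, 133, 148, 207 and 99.2 CPM in RBP4-TRAP and 46.7, 43.02, 64.1, 40.6 and 52.6 CPM in the VGAT line. Gabra2 was also higher in RBP4-TRAP (1.09 ± 0.20). Gabrd, the subunit of tonic receptors, was higher in VGAT-TRAP (-1.15 ± 0.21). Gabra6, known from cerebellar granule cells, had a fitted log2 fold change of 4.15 but was not called: its values were 0, 0, 0.260, 0.0455 and 11.6 CPM in RBP4-TRAP and 0, 0.178, 0.255, 0.211 and 0 CPM in the VGAT line, so that replicate 5 alone was high. The WCH library of the same pool was high too, at 27.5 CPM.

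AMPA receptor genes gave 6 of 17 called higher in RBP4-TRAP and 8 on the VGAT-TRAP side. Nptxr, Nptx1 and Nptx2, the neuronal pentraxins that gather AMPA receptors, were all higher in RBP4-TRAP (2.11 ± 0.22, 1.58 ± 0.25 and 1.34 ± 0.33). Nptxr read 466, 445, 589, 497 and 522 CPM in RBP4-TRAP and 74.8, 81.6, 199, 114 and 116 CPM in the VGAT line. Cnih3, a cornichon that slows the channel, was higher in RBP4-TRAP (1.78 ± 0.17). The pore subunits Gria1 and Gria4 were higher in VGAT-TRAP (-0.80 ± 0.18 and -0.83 ± 0.18), together with Cacng2, Cacng4 and Cacng5 of the auxiliary TARP family (-1.40 ± 0.16, -2.35 ± 0.29 and -1.50 ± 0.25). Gria2, whose edited subunit keeps calcium out of the channel, was higher in RBP4-TRAP (0.67 ± 0.23), a call lost under 6 of the 21 alternative settings.

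For NMDA, kainate and delta receptors 5 of 15 were called higher in VGAT-TRAP and 1 higher in RBP4-TRAP (median -0.47, and -0.26 without VGAT-TRAP replicate 3), the latter becoming 0 without RBP4-TRAP replicate 5 or VGAT-TRAP replicate 1. Grik1, a kainate receptor subunit of interneurons, read 5.36, 2.97, 5.45, 2.82 and 9.36 CPM in RBP4-TRAP and 36.1, 35.7, 28.3, 45.1 and 33.3 CPM in the VGAT line. Its auxiliary subunits Neto1 and Neto2 (-1.27 ± 0.19 and -2.27 ± 0.18) and the NMDA receptor subunits Grin2d and Grin3a (-1.39 ± 0.23 and -1.44 ± 0.15) were higher in VGAT-TRAP too. Of 13 metabotropic glutamate and GABA-B receptor genes, Grm2, an inhibitory presynaptic receptor, was higher in RBP4-TRAP (2.98 ± 0.31) with 50.7 to 67.5 CPM against 4.02 to 14.9 CPM.

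Vesicle and fusion proteins were even in number, 13 called higher in RBP4-TRAP and 13 on the VGAT-TRAP side of 45. Stx1a, a syntaxin of the fusion machinery, read 529, 614, 616, 585 and 714 CPM in RBP4-TRAP and 79.04, 67.98, 181, 98.1 and 106 CPM in the VGAT line, and was among the 3 genes with the smallest p on the RBP4-TRAP side (adjusted p = 1.03e-10). Sv2b, a vesicle glycoprotein, was higher in RBP4-TRAP (2.73 ± 0.31), whereas Syt2, the fast calcium sensor of parvalbumin terminals, and Vamp1, a synaptobrevin, were higher in VGAT-TRAP (-2.60 ± 0.23 and -2.12 ± 0.13). Among 33 synaptic organizers 11 were called higher in RBP4-TRAP and 5 on the VGAT-TRAP side. The latter share, 15.15%, was near the 15.1% of all tested genes. Nlgn1, the neuroligin of excitatory synapses, was higher in RBP4-TRAP (0.90 ± 0.17). Nxph1, a secreted ligand of neurexins, read 14.7, 10.3, 15, 11.8 and 19.2 CPM in RBP4-TRAP and 257, 277, 265, 342 and 276 CPM in the VGAT line. Elfn1, which sets the short-term facilitation of inputs to somatostatin cells, was -3.58 ± 0.26. Of 20 postsynaptic scaffolds 3 were called higher in RBP4-TRAP, a share of 15% near the 12.9% of all tested genes, among them Dlg1 (0.81 ± 0.21) and Dlgap4 (0.50 ± 0.15), and 0 higher in VGAT-TRAP, which became 2 without RBP4-TRAP replicate 5.

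Channels that set how neurons fire included some of the most separated genes. The Kv3 family lets fast-spiking cells repolarise quickly, and 3 of its 4 members were called higher in VGAT-TRAP. Kcnc1 read 25.3, 19.4, 26.6, 19.7 and 29.97 CPM in RBP4-TRAP and 188, 183, 189.8, 216 and 178 CPM in the VGAT line. Kcnc2 read 23.8, 24.1, 24.1, 23.7 and 28.3 CPM and 212, 253, 249, 327 and 251 CPM. Kcnc4 was higher in RBP4-TRAP (0.91 ± 0.18). The remaining voltage-gated potassium channel genes gave 13 and 15 calls of 37. Kcnip1, Kcnip2 and Kcnip3 encode proteins that bind Kv4 channels, and the former 2 were higher in VGAT-TRAP (-3.85 ± 0.35 and -2.27 ± 0.14) while Kcnip3 was higher in RBP4-TRAP (1.80 ± 0.22). Kcns3, a modifying subunit of parvalbumin cells, was higher in VGAT-TRAP (-3.31 ± 0.30), and Kcng1 and Kcnf1, modifying subunits as well, were higher in RBP4-TRAP (1.55 ± 0.29 and 1.34 ± 0.22).

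Kcnk4, a mechanically gated leak channel, was higher in RBP4-TRAP (2.67 ± 0.28), and Kcnmb2, which inactivates the large calcium-activated potassium channel, was higher in VGAT-TRAP (-4.55 ± 0.33), while the pore gene Kcnma1 was higher in RBP4-TRAP (0.74 ± 0.18). Among 11 sodium channel genes Scn2a was higher in RBP4-TRAP (0.71 ± 0.21). Scn4b, a beta subunit, and Scn9a were higher in VGAT-TRAP (-2.70 ± 0.27 and -1.63 ± 0.37). These calls, shares of 9.09% and 18.2%, lay near the 12.9% and 15.1% of all tested genes. Pex5l, the subunit TRIP8b that traffics HCN channels into dendrites, was higher in RBP4-TRAP (2.08 ± 0.21). Hcn3, a pore subunit of these channels, was higher in VGAT-TRAP (-1.54 ± 0.27). Cacna2d1 and Cacna2d2, related auxiliary subunits of calcium channels, were called in opposite directions, with Cacna2d1 at 178, 128, 157, 175 and 131 CPM in RBP4-TRAP and 49.3, 42.2, 84.7, 53 and 61.03 CPM in the VGAT line and Cacna2d2 at 2.56 to 8.85 CPM against 31.9 to 44.5 CPM.

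Calcium-binding proteins, 20 tested, were called higher in RBP4-TRAP for 7 and higher in VGAT-TRAP for 7. Beside Pvalb, Calb1 and Calb2, Necab2 was higher in VGAT-TRAP (-2.42 ± 0.22), and its relative Necab3 was higher in RBP4-TRAP (1.45 ± 0.17). Hpcal4, a neuronal calcium sensor, and S100a10, known as a marker of corticostriatal cells, were higher in RBP4-TRAP (1.12 ± 0.16 and 1.03 ± 0.26).

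On the cell surface, 8 of 23 cadherins and protocadherins were called higher in RBP4-TRAP and 6 on the VGAT-TRAP side. Cdh6 and Cdh10 were higher in RBP4-TRAP (2.10 ± 0.35 and 1.31 ± 0.25) and Pcdh18 higher in VGAT-TRAP (-2.87 ± 0.28). The perineuronal net is a lattice of matrix around parvalbumin cells. A list of net and other matrix proteins, with proteases that act on them, had 7 of 15 members called higher in VGAT-TRAP and 1 higher in RBP4-TRAP (median -0.75). Without RBP4-TRAP replicate 5 the members higher in VGAT-TRAP numbered 10 and the median was -1.60. Hapln1, the link protein of the net, read 4.35, 1.88, 3.22, 4.32 and 6.16 CPM in RBP4-TRAP and 41.4, 44.7, 58.5, 82.3 and 57.2 CPM in the VGAT line. The proteases Adamts5, Adamts8 and Adamts15, which cut its proteoglycans, were -2.08 ± 0.25, -1.92 ± 0.33 and -3.25 ± 0.36. Ncan, neurocan, a proteoglycan that astrocytes also make, was the member higher in RBP4-TRAP (1.65 ± 0.36), with 1468, 762, 790.3, 883 and 1365 CPM against 198, 179, 417, 255 and 627 CPM.

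Of 45 tested axon guidance genes 16 were called higher in RBP4-TRAP and 7 on the VGAT-TRAP side (median 0.36). The latter share, 15.56%, was near the 15.1% of all tested genes. Nrp1, the semaphorin receptor neuropilin, Unc5a, a netrin receptor, and Epha4, an ephrin receptor of corticospinal axons, were higher in RBP4-TRAP (1.64 ± 0.26, 1.32 ± 0.24 and 1.28 ± 0.20). Ntn1, netrin itself, and Sema3c, a secreted semaphorin, were higher in VGAT-TRAP (-1.55 ± 0.35 and -1.22 ± 0.28). Among 23 cytoskeletal genes of axons and dendrites 7 were called higher in RBP4-TRAP and 1 on the VGAT-TRAP side. Nefl, the light neurofilament, was higher in RBP4-TRAP (1.07 ± 0.15) and Nefh, the heavy neurofilament, was the member higher in VGAT-TRAP (-0.66 ± 0.15), where the count became 3 without RBP4-TRAP replicate 5. Stmn1 and Stmn4, which destabilise microtubules, were higher in RBP4-TRAP (1.13 ± 0.23 and 0.86 ± 0.19).

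Neuronal RNA-binding proteins, 31 tested, included 4 called higher in RBP4-TRAP and 6 on the VGAT-TRAP side, shares of 12.9% and 19.4% that lay near the 12.9% and 15.1% of all tested genes. The cytoplasmic polyadenylation proteins Cpeb1 and Cpeb2 were higher in RBP4-TRAP (0.89 ± 0.23 and 0.94 ± 0.22) and Cpeb3 higher in VGAT-TRAP (-0.89 ± 0.15). The Hu proteins also differed in direction, Elavl4 being higher in RBP4-TRAP (0.78 ± 0.20) and Elavl2 higher in VGAT-TRAP (-1.22 ± 0.21). Celf6 was higher in VGAT-TRAP (-1.88 ± 0.25). Of 20 activity-induced genes, 6 were called higher in RBP4-TRAP and 0 on the VGAT-TRAP side, with a median of 0.61. With the line difference in WCH subtracted, 1 of the 6 was still called, and the list's median in WCH was -0.12. Fos, the immediate early factor, was 1.17 ± 0.34 at 64.8, 68.4, 48.3, 81.99 and 51.4 CPM in RBP4-TRAP and 39.9, 32.6, 22.7, 32.6 and 12.4 CPM in the VGAT line. Fos and Bdnf were the 2 members of the list with every RBP4-TRAP library above every VGAT-TRAP library. Such 2 of 20 lay near the 9.59% of all tested genes, so the lack of overlap does not set the list apart.

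Nuclear genes of the respiratory chain and ATP synthase, 80 tested, were called higher in VGAT-TRAP for 33 and higher in RBP4-TRAP for 0, with a median of -0.49. Their summed level was 31447 to 41332 CPM in RBP4-TRAP and 45161 to 57378 CPM in the VGAT line, without overlap. The count of 33 became 21 without RBP4-TRAP replicate 5, 18 without its replicate 1, 20 without VGAT-TRAP replicate 4 and 21 with TMM factors. With the line difference in WCH subtracted, 3 of the 33 were still called, against 44.7% of all genes called in TRAP. The list's median in WCH was -0.003. Cox6a2, an isoform of a cytochrome oxidase subunit known from muscle and parvalbumin cells, stood apart from the rest of the list, with 8.40, 10.1, 13.9, 11.6 and 11.4 CPM in RBP4-TRAP and 146, 130.1, 141, 209.6 and 149 CPM in the VGAT line. Cox8b, another such isoform, read 0 to 0.358 CPM and 3.25 to 5.28 CPM, from 7 and 392 counts in all. Sdhc, a subunit of succinate dehydrogenase, had a difference nearer to the list's median (-0.70 ± 0.14).

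Of 81 cytoplasmic ribosomal protein genes 9 were called higher in VGAT-TRAP and 0 higher in RBP4-TRAP (median -0.34). The share of 11.1% higher in VGAT-TRAP was below the 15.1% of all tested genes, and the count ranged from 3 to 29 over the alternative settings. It was 3 without RBP4-TRAP replicate 1 or VGAT-TRAP replicate 1 or 4, and 5 without RBP4-TRAP replicate 4 or 5 or VGAT-TRAP replicate 3 or 5. With the line difference in WCH subtracted, 0 of the 9 genes were still called, and the list's median in WCH was 0.04. In glycolysis the lactate dehydrogenase subunits differed in direction, Ldha being higher in RBP4-TRAP (1.16 ± 0.21) and Ldhb higher in VGAT-TRAP (-0.77 ± 0.19). Ldha read 646, 984, 805, 969 and 698 CPM in RBP4-TRAP and 367, 409, 333, 299.5 and 433 CPM in the VGAT line. The 5 of 17 glycolytic genes higher in RBP4-TRAP became 3 without its replicate 5.

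The loci that carry or gave the drivers were read gene by gene. Rbp4, which encodes plasma retinol-binding protein and gave its name and regulatory DNA to the RBP4 line, read 20.4, 26.4, 25.2, 20.1 and 15.1 CPM in RBP4-TRAP and 111, 109, 101, 154 and 104 CPM in the VGAT line. The gene was thus higher in every VGAT-TRAP library than in any RBP4-TRAP library (-2.43 ± 0.30, adjusted p = 1.46e-07), while WCH stood at 9.69 to 16.9 CPM in the RBP4 line and 12.9 to 16.1 CPM in the VGAT line. Pde6c, a cone photoreceptor phosphodiesterase whose start lies 7.46 kb from that of Rbp4, read 15.3, 11.7, 9.60, 16.9 and 8.01 CPM in RBP4-TRAP and 1.02, 0.416, 0.765, 0.845 and 0.437 CPM in the VGAT line. In WCH it read 2.78 to 3.60 CPM in the RBP4 line and 0.489 to 1.11 CPM in the VGAT line, which did not overlap, with a log2 fold change of 2.004 that was not called (adjusted p = 0.0800). Ffar4, a fatty acid receptor gene 28.2 kb on the other side, was called higher in VGAT-TRAP from 3 counts in RBP4-TRAP and 62 in VGAT-TRAP in all, at 0 to 0.0596 CPM and 0.0972 to 1.11 CPM. The extent of genomic DNA that the transgene carries was not analysed here.

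Near Slc32a1, the processed transcript Gm14204, whose start lies 44 bases from that of Slc32a1 on the opposite strand, read 3.16, 1.88, 2.80, 2.77 and 3.31 CPM in RBP4-TRAP and 68.4, 68.5, 40.9, 75.6 and 49.5 CPM in the VGAT line. Its counts cannot be told apart from reads of the opposite strand, since counting by strand is not stated. In WCH the gene stood at 8.69 to 14.2 CPM and 9.19 to 11.8 CPM. The other genes called around Slc32a1 were Lbp (1.98 ± 0.46), Rprd1b (-0.43 ± 0.11) and Dhx35 (-0.86 ± 0.21), and around Rbp4 Lgi1, a secreted synaptic protein (0.77 ± 0.20), and Exoc6, of the exocyst (0.69 ± 0.23).

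**Figure D5:**
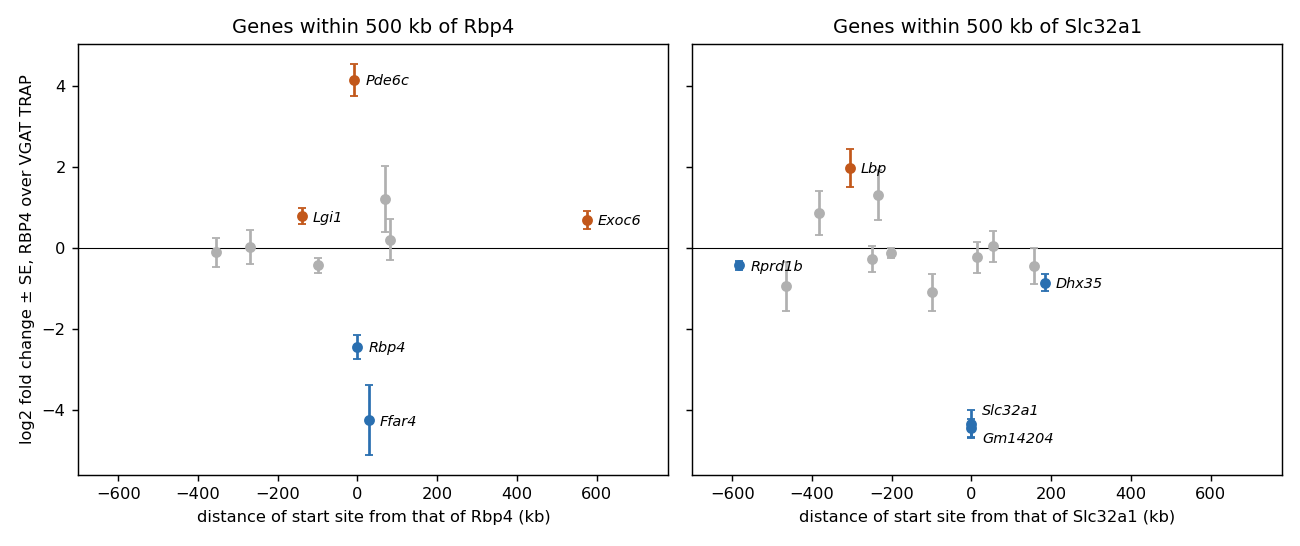
Log2 fold change of RBP4-TRAP over VGAT-TRAP with its SE (vertical axis) against distance of each tested gene's start from that of Rbp4 or Slc32a1 (horizontal axis, kb). Pde6c, next to Rbp4, is the highest at 4.14, Rbp4 itself lies at -2.43, and Slc32a1 (-4.34) and Gm14204 (-4.44) lie together at the VGAT driver locus.

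Beyond the lists, the 12 genes with the smallest p on each side, among those with no overlap and at least 1 CPM, mixed known and less familiar names. On the RBP4-TRAP side Vegfd, a vascular growth factor, had the largest difference of the 12, with 8.40, 8.07, 6.75, 15.8 and 6.95 CPM in RBP4-TRAP and 0.255, 0.297, 0.638, 0.317 and 0.486 CPM in the VGAT line. Dysf, a protein of membrane repair, was 2.45 ± 0.22. Tgm3, a transglutaminase, Pdlim1, a cytoskeletal PDZ and LIM protein, and Pik3r6, a subunit of phosphoinositide 3-kinase, were 3.71 ± 0.32, 3.83 ± 0.34 and 3.09 ± 0.28. Tmem232, Tmem159 and 2600014E21Rik were 3.78 ± 0.28, 2.23 ± 0.20 and 2.94 ± 0.26. On the VGAT-TRAP side Pcp4l1, a relative of Pcp4, read 35.5, 23.4, 25.6, 24.5 and 26.8 CPM in RBP4-TRAP and 891, 883, 682, 776 and 735 CPM in the VGAT line. Rbms3, an RNA-binding protein, was -4.30 ± 0.24, Syndig1l, a striatal membrane protein, was -4.64 ± 0.26, and Ubash3b, a phosphatase, was -3.70 ± 0.20. All 24 genes kept direction and call under every alternative setting tried in TRAP. They had been picked for their small p and lack of overlap in the same libraries, so this is no separate test of them.

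In WCH 2 of the 16900 genes were called (0.0118%, with 0.00592% in each direction), 426 had an unadjusted p under 0.05, and none was called without RBP4 WCH replicate 2 or 5. Wdfy1, an endosomal protein, read 62.2 to 101 CPM in the RBP4 line and 32.3 to 39.4 CPM in the VGAT line (1.12), and Gm4737 was higher in the VGAT line (-3.82). No member of any list was called in WCH. To read the line difference in TRAP relative to that in WCH, the latter was subtracted within the same fit, and 2128 genes (12.6%) were called for it, 951 on the RBP4-TRAP side (5.63%) and 1177 on the VGAT-TRAP side (6.96%). Of the 4731 genes called in TRAP 2114 (44.7%) were called for this difference as well. For Fezf2 it was 3.96 ± 0.49 (adjusted p = 6.29e-07), for Slc17a7 3.16 ± 0.47 (adjusted p = 9.96e-06), for Dlx1 -5.08 ± 0.27 (adjusted p = 5.34e-14) and for Sst -3.99 ± 0.48 (adjusted p = 3.51e-07). For Rbp4 it was -2.26 ± 0.41 (adjusted p = 1.83e-04) and for Pde6c 2.13 ± 0.55 (adjusted p = 0.00677).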

How the data were processed

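Libraries were made with a SMARTer Ultra Low kit from each fraction of 5 pools per line. The authors ran STAR 2.0.4b against Ensembl's top-level mouse assembly and deposited, per library, the count of uniquely aligned unambiguous reads per gene from Subread featureCounts 1.4.5, beside CPM and RPKM that the authors computed from those counts. The deposited coordinates are read here as GRCm38. Of 41388 genes in the files, 40254 have a symbol, and the 37 mitochondrial genes were left out.

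Counts of the 30 WCH, TRAP and TRAP-on-synaptoneurosome libraries were fitted together with edgeR 4.0.16 in R 4.3.3 (quasi-likelihood, 6 groups, library sizes as totals of the genes kept with no further factor). Genes were kept at 0.5 CPM or more in at least 3 of 20 TRAP-type libraries. Differences are log2 fold changes ± SE with Benjamini-Hochberg adjusted p over all genes kept, and 1 count in a TRAP library was worth 0.0455 to 0.0638 CPM, which limits the precision of low genes. Replicates are separate pools.

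Members and gene lists were chosen with earlier results of these data known. Genes named were the markers and genes the study names, the 12 with the smallest p on each side, the 3 smallest p values per list and direction, members of lists of 20 or fewer, genes within 500 kb of a driver gene and genes called in WCH. Alternatives were TMM and DESeq2 1.42.0 size factors, DESeq2, a likelihood ratio test, other filters and library sets, a replicate block, and each library left out. Promoters came from RefSeq (GRCm38.p6), 12280 tested genes matched. Some genes that this rule names are not reported here.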

Additional observations from a re-analysis of the deposited data

Results flagged for a closer look

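Within groups of 5 libraries, a library was singled out where its gap to the nearest other, over the group's range (Dixon's ratio), exceeded 0.71. Of 102 groups tested 15 did so, and chance gives about 1 in 20.

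RBP4-TRAP replicate 5 was the high library for Gad1 (ratio 0.866, 332 CPM), Gad2 (0.835, 97.0 CPM), Drd2 (0.922, 2.19 CPM) and Kcnc2 (0.903, 28.3 CPM). It was also high for the summed astrocyte markers (0.749, 1953 CPM), oligodendrocyte markers (0.891, 5725 CPM) and thalamic markers (0.769, 229 CPM). VGAT-TRAP replicate 3 was high for Fezf2 (0.885, 18.6 CPM), Slc17a7 (0.815, 155 CPM) and the sum of sex-linked genes (0.744, 106 CPM). Every one of these genes kept its direction and call with each of these libraries left out.

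The other singled-out values were VGAT-TRAP replicate 4 for Sst (0.729, 3648 CPM), Rbp4 (0.814, 154 CPM) and Nxph1 (0.762, 342 CPM), RBP4-TRAP replicate 4 for Vegfd (0.818, 15.8 CPM) and RBP4-TRAP replicate 1 for Pcp4l1 (0.718, 35.5 CPM).

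The line difference was not the same in TRAP and in WCH: the test of that difference called 2128 genes.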

How the results depend on the processing

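The counts of genes called in TRAP stayed within 1.5 times under all alternatives. They were 4021 to 4604 with a TRAP library left out and 4086 to 5206 otherwise. The split of these genes between the lines depended on scaling. RBP4-TRAP had 2183 of them and VGAT-TRAP 2548 in the main fit, against 2518 and 2209 with TMM factors. DESeq2 size factors in edgeR gave 2376 and 2401, and DESeq2 gave 2597 and 2609. Only TMM factors put the larger number on the RBP4-TRAP side. The median of all genes moved by 0.06 with TMM factors and 0.03 with DESeq2 factors. The 40 marker, study-named and top genes kept direction and call in all 21 settings, and of 322 named genes called 284 did. The top genes had been picked for their small p in the same libraries, so for them this is no separate test. Vcan and Plekhg1, not called with all libraries (0.01 and 0.12), reversed to -1.60 and -0.88 and were called without RBP4-TRAP replicate 5, and their values over single libraries left out ranged from -1.60 to 0.47 and from -0.88 to 0.39. In WCH the genes called were 4 with DESeq2, 4 with the likelihood ratio test and 1 with the mitochondrial chromosome kept, of which higher in the RBP4 line were 3, 3 and 0, and 2 with DESeq2 size factors in edgeR. With a library left out they were 0 to 2, of which 0 to 1 were higher in either line. Leaving out WCH libraries was chosen after the data were seen. The cause was not tested.

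The labels do not tie equal replicate numbers of the lines to each other. Deviations of same-numbered TRAP libraries correlated at 0.15 on average (-0.03 to 0.40) against -0.03 for different numbers, and 5 of the 10 libraries correlated best with their own number, a hint from the data rather than the design. With the replicate block 4855 genes were called in TRAP, 2 in WCH and 2237 for the difference. With pools as the block within lines the last was 2297. The number of ribosomal protein genes called ranged from 3 to 29 and of respiratory chain genes from 18 to 54. Depth limits genes near 1 count.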

Other observations

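Markers of microglia, the immune cells of the brain, were low in all TRAP libraries but not evenly so. Of 12 tested 9 were called higher in VGAT-TRAP and 0 higher in the other line, with a median log2 fold change of -1.55. With the line difference in WCH subtracted, 2 of the 9 were still called, against 44.7% of all genes called in TRAP. The list's median in WCH was -0.23. For 2 of the 12 every VGAT-TRAP library lay above every RBP4-TRAP library. P2ry12, a purinergic receptor, read 6.50, 3.52, 2.85, 3.05 and 5.49 CPM in RBP4-TRAP and 16.8, 7.67, 27.8, 21.1 and 11.9 CPM in the VGAT line. Ctss, a lysosomal protease, was -1.53 ± 0.37, and Tyrobp, a signalling adaptor, was -1.90 ± 0.40. Without RBP4-TRAP replicate 5 the median was -1.95 and 11 members were called. Astrocyte markers had 3 of 14 called higher in RBP4-TRAP (Aldh1l1 2.36 ± 0.35, S100b 1.74 ± 0.37, Agt 1.37 ± 0.52) and a median of 0.47, which was -0.17 without RBP4-TRAP replicate 5 and 0.97 without VGAT-TRAP replicate 3, where 5 were called higher in RBP4-TRAP. No oligodendrocyte marker of 16 was called, and without RBP4-TRAP replicate 5 the median went from -0.08 to -0.67 with 3 called higher in VGAT-TRAP.

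Markers of other regions were called in both directions. Of 12 hippocampal markers 6 were called higher in RBP4-TRAP and 2 on the VGAT-TRAP side, among the latter Calb1 (-1.36 ± 0.31). The former included C1ql2, a secreted synaptic protein of granule cells (3.61 ± 0.38), Dsp, a desmosomal protein (2.79 ± 0.43), and Spink8 (1.81 ± 0.34). C1ql2 read 5.96, 7.62, 9.34, 7.42 and 5.88 CPM in RBP4-TRAP and 0.637, 0.475, 0.638, 0.845 and 0.340 CPM in the VGAT line. Of 10 cerebellar and olfactory bulb markers 2 were called higher in RBP4-TRAP and 2 on the VGAT-TRAP side, and the median of 1.33 became -0.63 without RBP4-TRAP replicate 5. Those on the VGAT-TRAP side were Calb2 (-2.12 ± 0.32) and Th (-4.68 ± 0.42). Cbln1, a cerebellin that organises synapses and is best known from cerebellar granule cells, was among those higher in RBP4-TRAP and read 24.1, 23.6, 27.6, 31.9 and 22.6 CPM and 2.49, 1.07, 6.25, 2.43 and 2.04 CPM. Of 9 thalamic markers 4 were called higher in VGAT-TRAP, including Zic1 (-2.35 ± 0.58) and Tnnt1 (-2.79 ± 0.34), and Slc17a6 was higher in RBP4-TRAP. Of 5 sex-linked genes Eif2s3y was called higher in RBP4-TRAP (1.43 ± 0.38), 2 were so without RBP4-TRAP replicate 1, and pools held both sexes where available. The part of region or sex in the differences was not tested.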
